A study of Homo sapiens with 6 samples.

Results

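The collagen crosslinking and hydroxylation enzymes are 10 genes, chosen by name: the lysyl oxidases LOX, LOXL1, LOXL2, LOXL3 and LOXL4, the lysyl hydroxylases PLOD1, PLOD2 and PLOD3, and the prolyl 4-hydroxylase alpha subunits P4HA1 and P4HA2. All 10 had a row in the deposited table of 24789 genes and loci, and all 10 passed the filter on low counts that left 16250 genes tested. They were measured by RNA sequencing in LX-2, an established line of immortalised human hepatic stellate cells, the liver cells that lay down scar collagen. One group of 3 libraries came from cells given a scrambled siRNA, labelled wild type, and the other group of 3 from cells given an siRNA against AEBP1, labelled AEBP1 knockdown. Both siRNAs were delivered at 50 nM by lipofection for 48 hours. AEBP1 encodes a secreted protein that binds collagen. The sources used here do not say whether each library is a culture of its own, or whether the AEBP1 siRNA was 1 sequence or a pool. All p-values thus rest on a spread between libraries that may be technical. A change in the number of cells of one kind cannot be told apart from a change in RNA per cell in such bulk libraries.

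Collagen chains are modified in the endoplasmic reticulum before they fold. Prolyl 4-hydroxylases convert prolines to hydroxyproline, which holds the triple helix together at body temperature, and lysyl hydroxylases convert lysines to hydroxylysine, which carries sugars and sets the kind of crosslink formed later. Both enzyme families need iron, oxygen, 2-oxoglutarate and vitamin C. After secretion, the copper-dependent lysyl oxidases turn lysine and hydroxylysine side chains into aldehydes that join neighbouring collagen molecules, and elastin molecules as well. In fibrotic liver such crosslinks stiffen the scar and make it resistant to proteases, and activated stellate cells are a known source of these enzymes.

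Total counts were 34433510 to 49432960 per library. The targeted gene did not follow the labels. In CPM, which are counts scaled to library size, AEBP1 measured 53.6, 48.7 and 25.1 in the libraries labelled scrambled 1, 2 and 3, against 29.7, 27.7 and 48.3 in the libraries labelled AEBP1 siRNA 1, 2 and 3. The lowest of all 6 was thus the library labelled scrambled 3, and the library labelled AEBP1 siRNA 3 had nearly the value of scrambled 2. Another library stood apart across the transcriptome: AEBP1 siRNA 1 was the highest or the lowest of the 6 for 64.8% of all genes tested, where the other libraries were so for 23.5% to 33.7%. Every direction below is given for libraries as labelled and rests on these 6. Stellate and myofibroblast markers, 10 in all, ranged from high to absent. VIM was at 953 to 1288 CPM, COL1A1 at 1413 to 1617 CPM and TAGLN at 138 to 192 CPM. PDGFRB was at 28.9 to 36.9 CPM and NGFR at 22.4 to 36.5 CPM. ACTA2 had only 132 to 199 counts, HAND2 38 to 64 and RELN 9 to 32. LRAT, the enzyme that esterifies retinol in quiescent stellate cells, had 0 counts in every library, and the filament gene DES had at most 9. Marker lists of other liver cells were mixed, and 2 genes of each passed the filter on low counts. Of 8 hepatocyte markers, ALB had at most 4 counts and APOB and TTR 0 in every library, while SERPINA1 had 205 to 379 and ASGR1 143 to 237. Of 5 epithelial markers, EPCAM and CDH1 had at most 5 counts each and KRT19 at most 3, beside 484 to 869 for KRT7 and 510 to 813 for SOX9. Of 6 leukocyte markers, PTPRC had at most 6 counts, beside 727 to 1031 for CD68 and 62 to 133 for CD14. Of 6 endothelial markers, LYVE1 had 0 counts and KDR, with at most 20, had the most. Summed CPM of each list overlapped between the labelled groups, for example 8.58 to 12.7 against 10.2 to 12.8 for the hepatocyte list.

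All 10 enzymes were transcribed, over a wide range of levels. Levels of different genes are compared here per length, as deposited FPKM (fragments per kilobase of transcript, scaled to library depth), over all 6 libraries. LOXL2 led at 91.8 FPKM ± 5.37 (SD, n = 6), above 95.6% of the 13983 annotated genes tested. PLOD3 followed at 59.1 FPKM ± 3.70, then P4HA2 at 41.4 FPKM ± 2.55, PLOD1 at 34.3 FPKM ± 1.49, PLOD2 at 30.2 FPKM ± 2.78 and LOX at 25.5 FPKM ± 2.10 (SD, n = 6 for each). These 5 lay above 77.6% to 91.9% of the annotated genes tested. P4HA1, at 10.6 FPKM ± 0.376 (SD, n = 6), was above 53.4% of them. LOXL3, LOXL1 and LOXL4 were low, at 3.28 FPKM ± 0.328, 2.35 FPKM ± 0.464 and 1.32 FPKM ± 0.244 (SD, n = 6). 3 pairs of neighbours in this order had overlapping ranges: PLOD1 and PLOD2, PLOD2 and LOX, and LOXL3 and LOXL1. Every other neighbouring pair had ranges that did not overlap. Within each of the 6 libraries the 10 enzymes kept this same order.

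**Figure D1:**
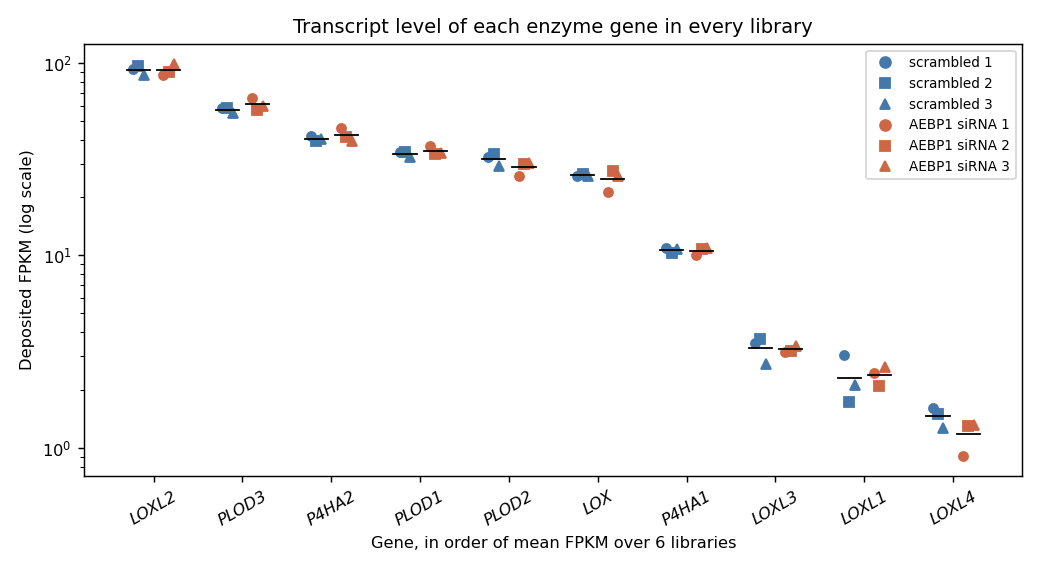
Deposited FPKM (log axis) of the 10 enzyme genes, in order of their mean, with 1 point per library (scrambled in blue, AEBP1 siRNA in orange, shapes for replicate numbers) and a bar at each group mean. LOXL2 lies between 86.1 and 99.2 FPKM in every library and LOXL4 between 0.903 and 1.62, and the points of both groups overlap within each gene.

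Between the labelled groups, none of the 10 enzymes passed the test for a difference. By edgeR's quasi-likelihood test 0 of 10 were called at a Benjamini-Hochberg adjusted p under 0.05, against 0.00615% of all 16250 genes tested, which is 1 gene. None of the 10 had an unadjusted p under 0.05, where 1.33% of all genes had, and DESeq2 and limma-voom called 0 of the 10 as well, where they called 0.0277% and 0.0123% of all genes. With replicate 3 of both groups left out, 0 of 10 were called beside 0.00614% of all genes. That omission was chosen after the data were seen and leaves fewer libraries to compare. Estimates were higher in the libraries labelled AEBP1 siRNA for 5 members and lower for 5. Their median log2 fold change was 0.010, beside a median of -0.0023 over all genes tested. In CPM the labelled groups overlapped for all 10, where 5.93% of all genes tested had groups that did not. The intervals bound only the difference between these libraries as labelled, and they rest on a spread that may be technical. AEBP1 did not follow the labels, so they do not bound the effect of lowering AEBP1. The 95% interval lay within a 1.3-fold change in either direction for 6 members (LOX, LOXL2, PLOD1, PLOD3, P4HA1 and P4HA2) and within 1.5-fold for 9, the exception being LOXL4.

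**Figure D2:**
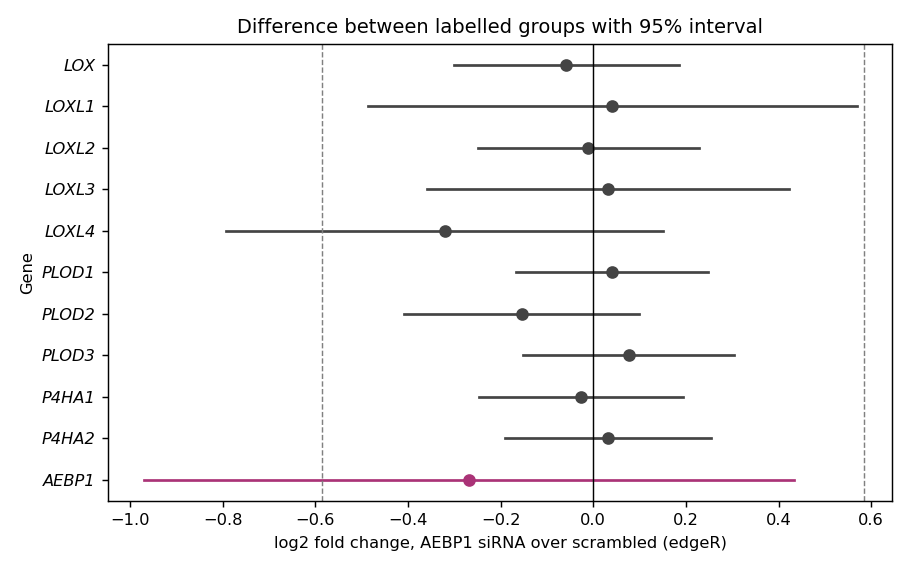
The log2 fold change of AEBP1 siRNA over scrambled libraries (point) with its 95% interval (line) for the 10 enzymes and, in purple, for AEBP1, where dashed lines mark a 1.5-fold change. All 11 intervals cross 0, and those of LOXL4 and AEBP1 are the only ones that reach past a dashed line.

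Among the lysyl oxidases, LOXL2 (ENSG00000134013) held most of the transcripts. It carries scavenger receptor domains in front of its catalytic domain, oxidises lysines of type IV collagen, and has been pursued as an antifibrotic target. It was at 371, 382 and 340 CPM in scrambled 1, 2 and 3, and at 337, 350 and 397 CPM in AEBP1 siRNA 1, 2 and 3. The highest library carried the AEBP1 siRNA label and so did the lowest. Its log2 fold change was -0.011 (edgeR adjusted p = 0.994), with a standard error of 0.104 and a 95% interval from -0.25 to 0.23, which as a ratio lies between 0.841 and 1.17.

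LOX (ENSG00000113083), the founding member, which is secreted as a proenzyme and acts on fibrillar collagens and elastin, was second in the family. It had 135, 144 and 140 CPM in scrambled 1, 2 and 3, and 118, 145 and 139 CPM in AEBP1 siRNA 1, 2 and 3. The other libraries lay close together and AEBP1 siRNA 1 was below them. For LOX the log2 fold change was -0.058 (edgeR adjusted p = 0.991), with a standard error of 0.106 and a 95% interval from -0.30 to 0.19. Without AEBP1 siRNA 1 the estimate was 0.026.

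LOXL4 (ENSG00000138131), a relative of LOXL2 with the same kind of receptor domains, had the largest estimate of the 10. Its values were 6.72, 6.18 and 5.20 CPM in scrambled 1, 2 and 3, against 3.68, 5.29 and 5.50 CPM in AEBP1 siRNA 1, 2 and 3. Scrambled 3 fell inside the range of the other group, so the groups overlapped. For LOXL4 the log2 fold change was -0.32 (edgeR adjusted p = 0.991), with a standard error of 0.205 and a 95% interval from -0.79 to 0.15, and the lowest library rested on 128 counts. Without AEBP1 siRNA 1 it was -0.16.

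LOXL1 (ENSG00000129038), which is tied to elastic fibres, varied more within the scrambled group than between groups. Its values there were 8.45, 4.82 and 5.84 CPM, a coefficient of variation of 29.4%, while counting error at its lowest count of 213 is 6.85%. In AEBP1 siRNA 1, 2 and 3 it was at 6.76, 5.66 and 7.22 CPM, all inside the range of the scrambled libraries. The LOXL1 estimate on the log2 scale was 0.041 (edgeR adjusted p = 0.991), with a standard error of 0.230 and a 95% interval from -0.49 to 0.57.

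LOXL3 (ENSG00000115318), needed for palate and spine development in mice, was at 12.9, 12.5 and 8.97 CPM in the scrambled libraries and at 11.5, 11.1 and 12.4 CPM in the AEBP1 siRNA libraries. One library, scrambled 3, was below the other 5. The log2 fold change of 0.032 (edgeR adjusted p = 0.991), with a standard error of 0.170 and a 95% interval from -0.36 to 0.42, became -0.12 without it. LOXL3 overlaps HTRA2 and DOK1, which lie on the opposite strand. No source used here says whether counting used strand, so its level is uncertain beside the 2799 to 3610 counts of HTRA2.

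The lysyl hydroxylases differed in their estimates. PLOD2 (ENSG00000152952), the enzyme that hydroxylates the telopeptide lysines whose crosslinks mark fibrotic collagen, had 134, 136 and 118 CPM in scrambled 1, 2 and 3. It had 103, 122 and 124 CPM in AEBP1 siRNA 1, 2 and 3. All libraries labelled AEBP1 siRNA were below scrambled 1 and 2, and scrambled 3 was below AEBP1 siRNA 2 and 3. For PLOD2 the log2 fold change was -0.15 (edgeR adjusted p = 0.991), with a standard error of 0.110 and a 95% interval from -0.41 to 0.099. It was -0.076 without AEBP1 siRNA 1 and -0.27 without replicate 3 of both groups, and it was below 0 under all 17 alternatives run for it. So was the estimate of LOXL4. These alternatives refit the same libraries, so a shared sign is no further support.

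PLOD3 (ENSG00000106397), which also adds sugars to hydroxylysine, was the leading lysyl hydroxylase, with 188, 189 and 175 CPM in scrambled 1, 2 and 3. In AEBP1 siRNA 1, 2 and 3 it was at 209, 178 and 194 CPM. The highest library was AEBP1 siRNA 1 and the lowest scrambled 3, and the others were mixed. Its log2 fold change was 0.076 (edgeR adjusted p = 0.991), with a standard error of 0.0992 and a 95% interval from -0.15 to 0.30, and 0.018 without AEBP1 siRNA 1.

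PLOD1 (ENSG00000083444), which hydroxylates lysines within the triple helix, was among the steadiest of the 10. It was at 109, 109 and 102 CPM in the scrambled libraries and at 116, 104 and 109 CPM in the AEBP1 siRNA libraries. Scrambled 1 and 2 and AEBP1 siRNA 3 were almost equal. The log2 fold change was 0.041 (edgeR adjusted p = 0.991), with a standard error of 0.0904 and a 95% interval from -0.17 to 0.25.

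For prolyl 4-hydroxylase, P4HA2 (ENSG00000072682) outweighed P4HA1 (ENSG00000122884), the alpha subunit usually described as the main one in most tissues. P4HA2 was at 122, 117 and 120 CPM in the scrambled libraries and 134, 120 and 113 CPM in the AEBP1 siRNA libraries. Both its highest and its lowest library carried the AEBP1 siRNA label. Its estimate on the log2 scale was 0.031 (edgeR adjusted p = 0.991), with a standard error of 0.0966 and a 95% interval from -0.19 to 0.25. P4HA1 was at 35.4, 33.2 and 34.5 CPM in the scrambled libraries and 31.7, 34.3 and 35.2 CPM in the AEBP1 siRNA libraries, the narrowest spread of the 10. Its log2 fold change was -0.026 (edgeR adjusted p = 0.991), with a standard error of 0.0958 and a 95% interval from -0.25 to 0.19.

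The make-up of each family was read from shares of its summed FPKM, with no test. LOXL2 took 72.5% to 75.5% of lysyl oxidase FPKM in every library and LOX 18.8% to 22.2%, which left at most 2.82% each for LOXL1, LOXL3 and LOXL4. P4HA2 took 78.3% to 82.2% of the FPKM summed over P4HA1 and P4HA2. P4HA3, another alpha subunit, was listed with the companions and left out of this sum. It had 27 to 62 counts and a mean of 0.346 FPKM over the 6 libraries. The ratio of P4HA2 to P4HA1 was 3.78, 3.81 and 3.76 in scrambled 1, 2 and 3, and 4.61, 3.82 and 3.61 in AEBP1 siRNA 1, 2 and 3, so that only AEBP1 siRNA 1 was well away from the others. Of the lysyl hydroxylases, PLOD3 took 46.2% to 51.2%, PLOD1 27.2% to 28.8% and PLOD2 20.0% to 26.7%. The share of PLOD2 was 26.0%, 26.7% and 24.9% in the scrambled libraries and 20.0%, 24.9% and 24.4% in the AEBP1 siRNA libraries. To more digits, scrambled 3 was at 24.921% and AEBP1 siRNA 2 at 24.909%, so the groups were separated by a margin too small to read, and AEBP1 siRNA 1 alone stood far below. The shares of PLOD3 and LOXL4 did not overlap either, again by small margins. PLOD3 took at most 47.19% in the scrambled libraries and at least 47.25% in the AEBP1 siRNA libraries, and LOXL4 at least 1.068% against at most 1.048%. The other 7 shares overlapped. Shares within a family add up to a whole, so those of PLOD2 and PLOD3 depend on each other. No such count of shares was made over all genes. In CPM the groups of PLOD2, PLOD3 and LOXL4 overlapped, where 5.93% of all genes tested had groups that did not.

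**Figure D3:**
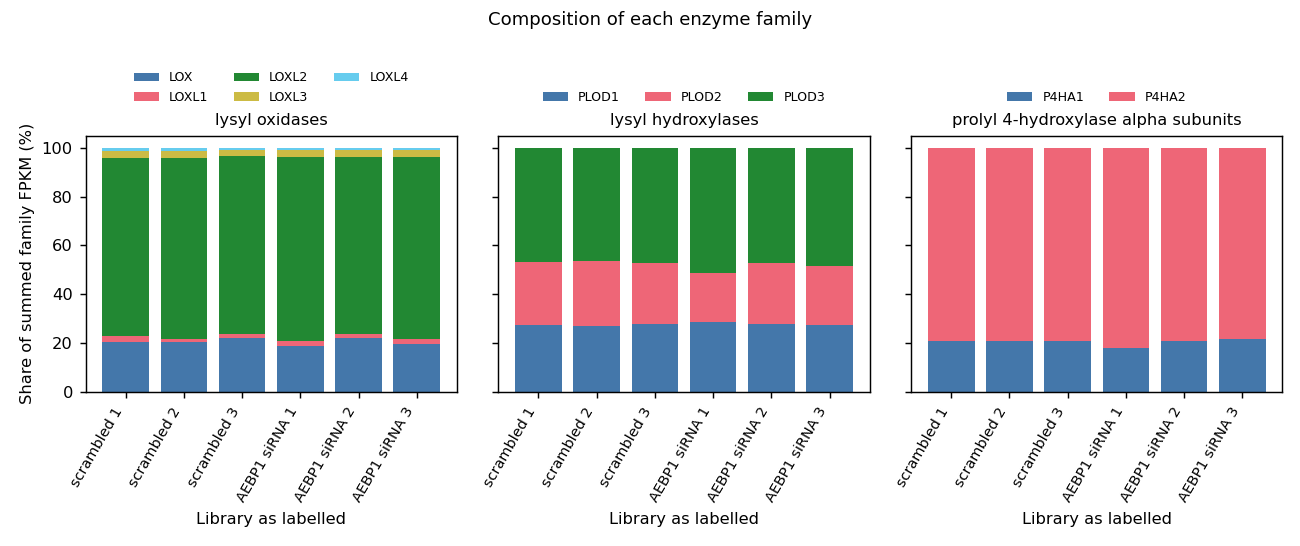
Stacked bars of each gene's share (%) of its family's summed FPKM in the 6 libraries. Families are the lysyl oxidases, the lysyl hydroxylases and the prolyl 4-hydroxylase alpha subunits P4HA1 and P4HA2. LOXL2 and P4HA2 make up most of their families in every bar, and in AEBP1 siRNA 1 PLOD2 has its smallest share (20.0%) and P4HA2 its largest (82.2%).

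In the library AEBP1 siRNA 1 some enzymes were at their lowest and others at their highest. Relative to each gene's mean over the 6 libraries, AEBP1 siRNA 1 was at -0.21 for LOX, -0.25 for PLOD2, -0.10 for P4HA1, -0.10 for LOXL2 and -0.54 for LOXL4, in log2 CPM. It was the lowest library for these 5 of 10, where it was the lowest for 32.6% of all genes tested. In the same library PLOD1, PLOD3 and P4HA2 were at 0.10, 0.15 and 0.15, and it was the highest for these 3 of 10, where it was the highest for 32.2% of all genes. With 10 members these counts are read as a description of the library and not as particular to the enzymes. The standard deviation of log2 CPM over the 6 libraries was 0.060 for P4HA1, 0.064 for PLOD1 and 0.30 for LOXL4. It was below 0.160, the median of the 11582 genes that averaged 5 CPM or more and had a count in every library, for 7 of the 10, the others being LOXL1, LOXL3 and LOXL4. LOXL1, LOXL3 and LOXL4 also had the lowest mean CPM of the members. The 11582 genes were not matched to the members for level.

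Order among the libraries was shared with AEBP1 for 4 members. LOXL2, LOXL3, LOXL4 and PLOD2 each had their 3 highest CPM values in scrambled 1, scrambled 2 and AEBP1 siRNA 3, the libraries that also held the 3 highest values of AEBP1. The same 3 libraries were the highest for 9.8% of the other genes tested. For LOXL2 the lowest of the 3 was scrambled 1 at 371 CPM and the highest of the rest AEBP1 siRNA 2 at 350 CPM, and for PLOD2 these values were 124 and 122 CPM. The AEBP1 values lay in a pair of separate clusters, so no correlation with AEBP1 was computed, and whether these enzymes vary with AEBP1 was not tested. LOX, LOXL1, PLOD1, PLOD3, P4HA1 and P4HA2 did not have this order.

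**Figure D4:**
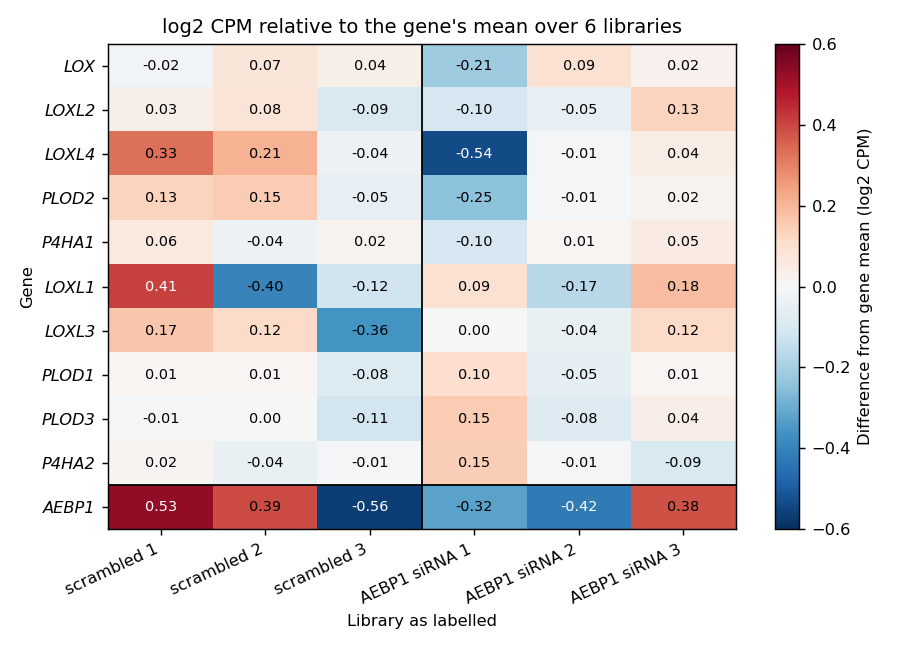
Each cell gives a gene's log2 CPM in 1 library minus its mean over the 6 libraries (red higher, blue lower), for the 10 enzymes and, in the last row, AEBP1. AEBP1 is high in scrambled 1, scrambled 2 and AEBP1 siRNA 3 (0.53, 0.39 and 0.38), and the first 5 rows hold the enzymes that are lowest in AEBP1 siRNA 1.

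The promoters of the enzymes lowest or highest in AEBP1 siRNA 1 are shown so that their letters can be compared, for every such enzyme but LOXL2. They are the 250 bases before the RefSeq start site (the most upstream one listed for LOX), 5′ to 3′ on the gene's strand, build GRCh38.p14. Capitals mark ACGTG on either strand, a form of the core of the element bound by hypoxia-inducible factors. The core also occurs as GCGTG, which is not marked. It was looked for since LOX, PLOD2, P4HA1 and P4HA2 are textbook hypoxia targets. LOX lies at chr5:122078260-122078509, PLOD2 at chr3:146161185-146161434, P4HA1 at chr10:73096867-73097116 and LOXL4 at chr10:98268195-98268444, all on the minus strand, and these were among the genes lowest in AEBP1 siRNA 1. PLOD1 lies at chr1:11934467-11934716 on the plus strand, and PLOD3 at chr7:101217582-101217831 and P4HA2 at chr5:132227092-132227341 on the minus strand, and these were the genes highest there.
LOX: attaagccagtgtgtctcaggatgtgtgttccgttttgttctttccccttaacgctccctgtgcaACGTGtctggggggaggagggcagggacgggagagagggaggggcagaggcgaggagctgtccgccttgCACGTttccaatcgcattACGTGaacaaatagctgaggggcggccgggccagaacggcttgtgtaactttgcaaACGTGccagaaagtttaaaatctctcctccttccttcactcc
PLOD2: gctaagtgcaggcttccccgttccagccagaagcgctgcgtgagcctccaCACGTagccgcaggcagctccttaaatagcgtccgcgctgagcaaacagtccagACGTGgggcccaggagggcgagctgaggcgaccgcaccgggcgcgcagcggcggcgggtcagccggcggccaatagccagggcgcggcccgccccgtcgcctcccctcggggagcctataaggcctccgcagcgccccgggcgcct
P4HA1: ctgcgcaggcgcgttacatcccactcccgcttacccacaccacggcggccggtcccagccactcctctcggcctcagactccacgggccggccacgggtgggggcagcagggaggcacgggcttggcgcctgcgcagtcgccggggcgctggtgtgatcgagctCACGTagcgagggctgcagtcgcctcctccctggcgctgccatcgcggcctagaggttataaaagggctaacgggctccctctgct
LOXL4: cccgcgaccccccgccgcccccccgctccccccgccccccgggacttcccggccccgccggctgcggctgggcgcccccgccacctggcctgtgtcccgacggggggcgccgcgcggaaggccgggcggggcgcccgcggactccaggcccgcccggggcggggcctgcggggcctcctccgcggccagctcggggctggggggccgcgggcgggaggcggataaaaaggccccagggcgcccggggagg
PLOD1: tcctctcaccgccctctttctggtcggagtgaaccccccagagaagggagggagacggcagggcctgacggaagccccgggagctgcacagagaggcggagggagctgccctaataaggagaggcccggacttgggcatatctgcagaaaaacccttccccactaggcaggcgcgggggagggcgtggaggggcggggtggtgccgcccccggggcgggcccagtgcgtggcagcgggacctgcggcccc
PLOD3: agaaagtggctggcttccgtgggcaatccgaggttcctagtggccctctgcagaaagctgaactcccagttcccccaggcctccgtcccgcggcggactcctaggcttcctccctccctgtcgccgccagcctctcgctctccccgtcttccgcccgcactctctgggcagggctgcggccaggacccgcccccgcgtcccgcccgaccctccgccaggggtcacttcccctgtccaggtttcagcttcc
P4HA2: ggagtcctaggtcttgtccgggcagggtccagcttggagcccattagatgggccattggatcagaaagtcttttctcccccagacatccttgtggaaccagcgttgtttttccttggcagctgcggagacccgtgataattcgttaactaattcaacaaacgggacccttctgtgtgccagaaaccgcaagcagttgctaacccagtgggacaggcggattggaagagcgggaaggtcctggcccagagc

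ACGTG was found 4 times in the LOX window, 2 times in that of PLOD2 and once in that of P4HA1, and in none of the windows of LOXL4, PLOD1, PLOD3 and P4HA2. LOXL4, without the motif, was the member furthest below its mean in AEBP1 siRNA 1. LOXL2, also lowest there, had no window. Whether the motif goes with the level in that library was not tested. In PLOD2 the matches begin 200 and 146 bases before the start site, and in P4HA1 the match begins 86 bases before it. Windows were listed for 9 of the 10 members, 12 in all, and 3 of the 9 genes held the motif (LOX, PLOD2 and P4HA1), where 21.7% of all 27305 genes listed did. All 3 windows of LOX held it, and the other two of these overlap and share a single match. Of all 35116 windows of the same length 18.5% held it. GCGTG, the other form of the hypoxia-inducible factor core, was found on either strand in 4 of the 9 genes and 36.2% of all genes. The 4 were LOX, LOXL3, PLOD1 and PLOD2, so PLOD1, among the genes highest in AEBP1 siRNA 1, held it. Other motifs searched on both strands were GGGCGG, found in 6 of the 9 genes and 46.2% of all genes, CCAAT in 3 and 37.0%, TATAAA in 1 and 13%, and TGANTCA in 0 and 8.1%. ACGTG and GCGTG can overlap on opposite strands. A match is a run of letters and not a measured site.

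Genes of the hypoxia response were read beside them. Of 14 listed, 12 were tested and 0 were called in either direction, a median log2 fold change of -0.0064, and 6 estimates higher and 6 lower. The 3 with the smallest unadjusted p all had higher estimates in the libraries labelled AEBP1 siRNA. ADM, which encodes the vasodilator adrenomedullin, was at 42.1, 42.0 and 54.6 CPM in scrambled 1, 2 and 3 and 70.7, 54.5 and 41.2 CPM in AEBP1 siRNA 1, 2 and 3. BNIP3, a mitophagy receptor, was at 100 CPM ± 2.71 against 109 CPM ± 12.5, and ALDOA, a glycolytic aldolase, at 395 CPM ± 4.36 against 439 CPM ± 83.7 (SD, n = 3 per group). Their edgeR adjusted p was 0.991 each. These 3 were highest in AEBP1 siRNA 1, but the list as a whole was mixed there. It was the highest library for 5 of the 12 and the lowest for 4 (VEGFA, PDK1, NDRG1 and KDM3A, named after their values were seen), beside 32.2% and 32.6% of all genes tested. CA9, a carbonic anhydrase strongly induced by hypoxia, had 0 counts in every library, where 3 counts would amount to 0.061 to 0.087 CPM and cover counting error only.

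The enzymes' partners in collagen maturation were not called either. Of 26 listed companions 25 were tested and 0 were called, while 14 estimates were higher and 11 lower, around a median log2 fold change of 0.014. P4HB, the disulphide isomerase that forms the beta subunit of prolyl 4-hydroxylase, was at 402, 399 and 386 CPM in the scrambled libraries and at 483, 395 and 399 CPM in the AEBP1 siRNA libraries. It thus rested within 386 to 402 CPM in every library but AEBP1 siRNA 1. The prolyl 3-hydroxylation complex was measured through P3H1, its enzyme, CRTAP, its scaffold, and PPIB, a proline isomerase. P3H1 was at 45.9 CPM ± 3.99 against 48.2 CPM ± 6.17, CRTAP at 128 CPM ± 15.1 against 126 CPM ± 8.14, and PPIB at 196 CPM ± 18.5 against 219 CPM ± 48.6 (SD, n = 3 per group). PPIB reached 273 CPM in AEBP1 siRNA 1 and at most 215 CPM elsewhere. SERPINH1, the collagen chaperone HSP47, was at 301 CPM ± 50.6 against 304 CPM ± 37.3. BMP1, the protease that trims procollagen and activates the LOX proenzyme, was at 74.9 CPM ± 4.73 against 72.5 CPM ± 3.09 (SD, n = 3 per group), a log2 fold change of -0.047 (95% interval -0.26 to 0.17).

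Of these companions, the 3 with the smallest unadjusted p were ADAMTS14, SEC23A and SEC24D, each with an edgeR adjusted p of 0.991. ADAMTS14, a procollagen N-proteinase, was at 2.01 CPM ± 0.452 against 1.28 CPM ± 0.475 (SD, n = 3 per group). SEC23A and SEC24D build the vesicle coat that carries procollagen out of the endoplasmic reticulum. SEC23A was at 189, 203 and 187 CPM in the scrambled libraries and 142, 183 and 177 CPM in the AEBP1 siRNA libraries, and was the 1 companion of 25 whose groups did not overlap, a share no larger than the 5.93% of all genes tested. SEC24D was at 51.1, 57.4 and 29.1 CPM in scrambled 1, 2 and 3 and at 26.8, 29.3 and 51.3 CPM in AEBP1 siRNA 1, 2 and 3. Its values form a high and a low set that cut across the labels, with scrambled 3 low and AEBP1 siRNA 3 high, as for AEBP1.

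Genes that supply cofactors or bind lysyl oxidases had lower estimates for 6 of 8 tested, with a median of -0.13, and 0 were called, where 8219 of all 16250 genes had lower estimates. Relative to each gene's mean, the list's median log2 CPM was -0.20 in AEBP1 siRNA 1 but 0.0026 and 0.041 in AEBP1 siRNA 2 and 3. SLC31A1, the copper importer of the plasma membrane, was at 149, 145 and 154 CPM in the scrambled libraries and 120, 144 and 133 CPM in the AEBP1 siRNA libraries. The groups did not overlap, by a narrow margin, for this 1 gene of 8, where 5.93% of all genes tested had such groups, and the edgeR adjusted p was 0.991. ATP7A, the pump that loads copper into lysyl oxidases, was at 29.5 CPM ± 3.23 against 26.1 CPM ± 8.18 (SD, n = 3 per group). FN1, the fibronectin that binds LOX and BMP1 in the matrix, was at 2446, 2774 and 2363 CPM in scrambled 1, 2 and 3 and 1289.9, 1980.01 and 2739 CPM in AEBP1 siRNA 1, 2 and 3. ELN, the elastin that lysyl oxidases crosslink, had 0 counts in every library.

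Among the collagen substrates, 8 of 10 estimates were lower in the libraries labelled AEBP1 siRNA, the median was -0.061, and 0 were called. Their median log2 CPM relative to each gene's mean was -0.12, -0.068 and 0.064 in AEBP1 siRNA 1, 2 and 3. COL4A2 of basement membrane was at 916 CPM ± 54.2 against 835 CPM ± 78.7, and COL5A2, a regulatory fibrillar chain, at 311 CPM ± 22.8 against 278 CPM ± 47.9 (SD, n = 3 per group). COL6A3 of the pericellular microfibrils was at 120, 123 and 81.2 CPM in the scrambled libraries and at 46.9, 81.9 and 133 CPM in the AEBP1 siRNA libraries, with an edgeR adjusted p of 0.991. As with SEC24D, the low values were those of scrambled 3 and AEBP1 siRNA 1 and 2. Both genes were called as lower when replicate 3 of both groups and AEBP1 siRNA 1 were left out, a fit that leaves 1 library labelled AEBP1 siRNA against 2, assumed to vary like them, and that called 249 genes, or 1.46% of those tested. Those libraries were left out with the AEBP1 values known, which fixes the direction of genes that share its order, so these calls support nothing. In that fit 0 of the 10 enzymes were called.

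**Figure D5:**
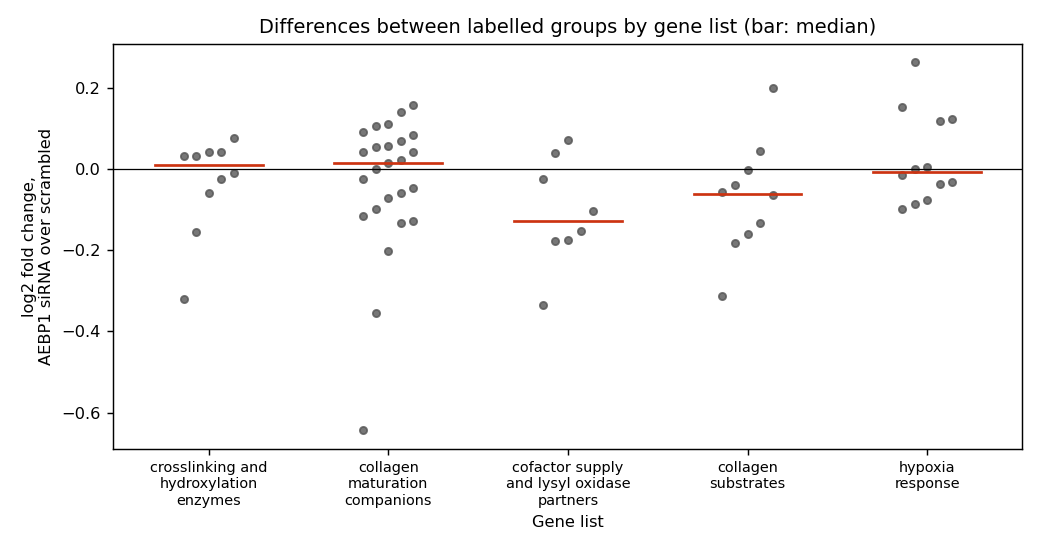
The log2 fold change of AEBP1 siRNA over scrambled libraries for every tested gene of 5 lists (points), with a bar at each list's median. The enzymes lie between -0.32 and 0.076, and the medians run from -0.13 for cofactor supply and lysyl oxidase partners to 0.014 for the collagen maturation companions.

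Genes with the most similar course over the 6 libraries were sought for the 2 members that varied most, LOXL4 and LOXL1. Likeness was the root mean square difference between log2 CPM profiles centred on each gene's mean, over 11045 annotated genes averaging 5 CPM or more. Nearest to LOXL4 were GSAP at 0.042, MIOS at 0.043 and USP13 at 0.053, where the median over all genes compared was 0.303. MIOS, a subunit of a regulator of the growth kinase mTORC1, was at 19.6, 17.7 and 16.1 CPM in the scrambled libraries. In the AEBP1 siRNA libraries it was at 11.1, 16.4 and 16.3 CPM. MIOS was picked for its likeness to LOXL4, so a shared lowest library, AEBP1 siRNA 1, follows from the choice. That library was the lowest for 32.6% of all genes tested. The smallest of 11045 distances lie far below the median by selection, so they are a description only. Nearest to LOXL1 were BTN3A2 at 0.099, CDPF1 at 0.103 and TLNRD1 at 0.119, beside a median of 0.290.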

How the data were processed

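RNA of LX-2 cells was sequenced from an mRNA kit, per the labels' protocols. The authors deposited a raw count and an FPKM value per gene and library, per the file headers. The submitters' processing notes name the build hg19. Aligner, counter, annotation, strand setting and filters are unknown from the sources used here. Counts were tested, and FPKM served to compare genes with each other. Of the table's lines, 24789 held values (4815 of them for loci assembled outside the annotation) and 17 held only annotation text and were dropped. No pair of libraries agreed within sampling noise (the smallest chi-square per degree of freedom was 7.78), so none was treated as a copy.

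After filterByExpr and TMM scaling, edgeR 4.0.16 (quasi-likelihood test, R 4.3.3) was fitted with group alone, and p-values were adjusted over all 16250 genes. CPM are counts over the scaled library size, times 1000000, and a standard error is the log2 fold change over the square root of F. Alternatives used DESeq2 1.42.0, limma 3.58.1 (voom, log2(FPKM + 1) or log2(FPKM + 0.1), where the added value pulls changes of low FPKM towards 0), other scalings and filters, a replicate block, a threshold of 0.01 and the omission of libraries. In simulated counts for this comparison edgeR found 19.4% of 67 genes with a planted 1.5-fold change, 85.1% of 67 at 2-fold and 98.5% of 66 at 4-fold. It also called 12 genes with no planted change. The simulated libraries were drawn independently and none was made to stand apart as AEBP1 siRNA 1 does.

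Members and gene lists were chosen with earlier results of these data known. The rule named all 10 members, AEBP1, P4HB, SERPINH1, P3H1, CRTAP, PPIB and BMP1, the 3 genes of smallest unadjusted p in each list other than markers, and the 3 nearest profiles of the 2 most variable members averaging 5 CPM or more. Other genes, and the motifs, were picked after their values were seen. Promoter sequences are from RefSeq on GRCh38.p14, while the submitters used hg19, so they were matched by gene symbol only.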

Additional observations from a re-analysis of the deposited data

How the results depend on the processing

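Of the 10 enzymes, 0 were called under each of 18 alternatives, and the lowest adjusted p of any of them was 0.547. Their log2 fold changes kept their sign in 146 of 170 values and reversed in 24, and the cause was not tested. Reversals without omission of libraries were LOXL2 at 0.0049 with upper quartile scaling and LOXL3 at -0.012 with log2(FPKM + 1) and with log2(FPKM + 0.1). With replicate 3 of both groups left out, chosen after the data were seen, LOXL1 was at -0.093 and LOXL3 at -0.16. When AEBP1 siRNA 1 was omitted too, LOXL2 was at -0.10, and reversed values were LOX at 0.063, LOXL1 at -0.22, LOXL3 at -0.19, PLOD1 at -0.065, PLOD3 at -0.078 and P4HA1 at 0.00097. Without single libraries, estimates ran from -0.12 to 0.026 for LOX, -0.13 to 0.30 for LOXL1, -0.084 to 0.036 for LOXL2, -0.12 to 0.13 for LOXL3, -0.43 to -0.16 for LOXL4, -0.0013 to 0.077 for PLOD1, -0.22 to -0.076 for PLOD2, 0.018 to 0.13 for PLOD3, -0.058 to 0.017 for P4HA1 and -0.038 to 0.083 for P4HA2.

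Against 1 gene called among all genes, no filter gave 3, DESeq2 6, limma-voom 2, log2(FPKM + 0.1) 3, a threshold of 0.01 0, and single omissions 0 to 2. The replicate block gave 2 calls, 0 of them enzymes. Same-numbered libraries gave no sign of pairing, since their deviations from group means correlated at 0.067, -0.011 and -0.095. With replicate 3 of both groups and AEBP1 siRNA 1 omitted, calls rose to 249 genes, 2 of them in the lists read beside the enzymes (SEC24D and COL6A3), and AEBP1 was at -0.88 with an adjusted p of 0.00536. That omission was chosen with the AEBP1 values known and fixes the direction of AEBP1, so this p is no evidence of a knockdown. Its adjusted p was at least 0.378 elsewhere, and its estimate ran from -0.57 to -0.066 without single libraries. At 128 to 304 counts for LOXL4 and 213 to 347 for LOXL1, depth limits these members most.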

Other observations

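Deposited counts and FPKM did not keep a fixed ratio for every enzyme. The transcript length implied by a gene's count, its FPKM and the library total ran from 3294 to 3689 bases for LOXL3 and from 5203 to 5543 bases for LOX. For LOXL2, PLOD1 and P4HA1 it stayed within 3893 to 3971, 3118 to 3200 and 3165 to 3221 bases. Fold changes of LOXL3 in FPKM and in counts thus differ, and its estimate was -0.012 in FPKM and 0.032 in counts.

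Several members share their locus with other genes in the GENCODE annotation of GRCh38. Genes on opposite strands can share reads where strand is not used, and genes on the same strand can share them in either case. LOX overlaps SRFBP1 (1341 to 1891 counts per library) on the opposite strand, LOXL2 overlaps ENTPD4 (2077 to 3677 counts) on the same strand, and PLOD3 overlaps ZNHIT1 (1586 to 2200 counts) on the opposite strand. P4HA2 overlaps SLC22A4 (740 to 1117 counts) and PDLIM4 (at most 5 counts), both on the opposite strand. Of these 5 members LOXL3 is the one with fewer counts than its overlapping neighbours, at 393 to 613 counts beside the 1311 to 1613 of DOK1. LOXL1, LOXL4, PLOD2 and P4HA1 overlap only genes without a row of counts, so shared reads could not be judged for them.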
